A study of Marchantia polymorpha with 78 samples.

Results

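The levels of 3 genes for families of secreted proteins were followed through light and darkness in the liverwort Marchantia polymorpha: MpLTP-like65 (Mp3g06560), MpPR1o (Mp5g16820) and MpGH19.8 (Mp4g20470). They were selected on these same data for their rise during prolonged darkness, so their levels in darkness are given as a description and are not tested. They are 3 of the 19355 genes in the deposited table, and all 3 were among the 13054 genes tested. All libraries came from thalli of wild-type Tak-1, a male accession grown from clonal gemmae on sucrose-containing medium at 23 °C. Every plant had 8 days of continuous white light and then 24 h of darkness. Plates then received white light, blue light (peak 430 nm), red light (peak 660 nm) or far-red light (peak 730 nm), or stayed in darkness, for 30 min, 60 min, 180 min, 12 h or 24 h. Per the labels, light intensity was 50 to 60 µmol m-2 s-1 in white, 30 to 40 in blue, 80 to 90 in red and 30 to 40 in far-red light; intensity and wavelength cannot be told apart between lights other than blue and far-red. Plants taken at the end of the first dark period form the time-zero group. Each of the 26 groups has 3 biological replicates, and each replicate pools 3 plants. Since the labels state that 1 plate carried 3 replicates, plate and treatment cannot be told apart, and p-values measure the spread among these samples.

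Nonspecific lipid transfer proteins are small, cysteine-rich secreted proteins that carry fatty acids and other lipids, and in land plants they take part in building cuticle and other surface barriers. PR1 proteins are secreted proteins of the CAP superfamily whose genes are classic markers of the defence response in flowering plants. Family 19 glycoside hydrolases (GH19) include plant chitinases, which cut the chitin of fungal walls. Red and far-red light are read by phytochrome, which red light converts to its active form and far-red light returns largely to the inactive form, while cryptochromes and phototropins read blue light. Far-red light at such wavelengths drives little photosynthesis.

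Values are TPM, a transcript abundance that is corrected for gene length and adds up to the same total in each library. The read depth of the libraries is unknown. Differences are on the log2(TPM + 1) scale with the SE of a limma fit to all 78 libraries. A call required a log2 difference of at least 1 in size and an adjusted p (Benjamini-Hochberg) under 0.05. The 50 most abundant genes held between 13.6% and 20.83% of the TPM per library. Among the dark libraries of 60 min, replicate 3 stood apart, toward those of 180 min: its 50 most abundant genes held 17.84% of TPM, against 20.15% and 20.83%, and the differences of the 3 genes from darkness at 60 min are given with and without it. Of the fixed tissue markers, the small Rubisco subunit gene MpRBCS (63.8 to 319 TPM), the oil body cell factor MpC1HDZ (22.8 to 95.2 TPM) and MpRKD (46.6 to 142 TPM), a factor of germ cell development, were present in every library. MpPRM, a sperm protamine gene, was at or near 0 (0 to 0.183 TPM), MpDUO1, a sperm lineage factor, was between 0.147 and 3.12 TPM, MpERF13, another oil body factor, between 0.484 and 2.72 TPM, and the gemma cup factor MpGCAM1 between 0.173 and 15.8 TPM. In such whole-thallus RNA, fewer cells of a type and less RNA per cell cannot be told apart.

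MpLTP-like65 was the most abundant of the 3 genes in prolonged darkness, per length, and no light group came near its dark level. In darkness its 3 libraries were at 16.6, 21.2 and 19.5 TPM at 30 min and at 20, 17.7 and 20.4 TPM at 60 min. They were at 33.7, 32 and 33.4 TPM at 180 min, at 89.9, 93.2 and 79.1 TPM at 12 h, and at 201, 153 and 152 TPM at 24 h, against 21.5, 18.7 and 15.3 TPM at time zero. The first 60 min of added darkness overlapped time zero, and all 9 later dark libraries lay above it. The mean at 24 h of darkness was 169 ± 27.6 TPM (SD, n = 3), 9.12 times the 18.5 ± 3.06 TPM at time zero, a log2 difference of 3.12 (SE 0.14). By this difference it ranked 2 among 13054 tested genes.

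MpPR1o stayed low for longer in darkness. Its dark libraries were at 7.57, 6.13 and 6.58 TPM at 30 min, at 2.82, 1.62 and 16.2 TPM at 60 min, and at 4.37, 4.82 and 9.76 TPM at 180 min. They reached 16.6, 15.4 and 12.2 TPM at 12 h and 40.7, 30.7 and 43.5 TPM at 24 h, against 6.48, 5 and 6.44 TPM at time zero. The high value at 60 min is the library that stood apart. The range of each of the 3 dark groups up to 180 min overlapped that of time zero. At 60 and 180 min this was by enclosing it: the highest library lay above all of time zero and the others below. At 24 h of darkness the mean was 38.3 ± 6.74 TPM, 6.41 times the 5.97 ± 0.841 TPM at time zero (SD, n = 3 each), with a log2 difference of 2.49 (SE 0.387) that ranked 7. Its rank at 12 h, given as a description, was 63, against 5 for MpLTP-like65 and 17 for MpGH19.8.

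By the ratio to time zero, MpGH19.8 lay between the other genes at 180 min and 12 h of darkness and had the smallest value at 24 h. Its dark libraries were at 10.6, 9.16 and 11.7 TPM at 30 min, 11.9, 9.22 and 20.5 TPM at 60 min, and 12.8, 12 and 11.6 TPM at 180 min. They were at 27.7, 24.5 and 28.1 TPM at 12 h and 62, 48 and 51.1 TPM at 24 h, against 9.7, 9.04 and 8.54 TPM at time zero. The 20.5 TPM again came from replicate 3 of darkness at 60 min. From 180 min on, no dark library overlapped time zero. The 24 h mean of 53.7 ± 7.34 TPM was 5.9 times the 9.1 ± 0.581 TPM at time zero (SD, n = 3 each), with a log2 difference of 2.43 (SE 0.168) that ranked 8. Over all tested genes, 1.22% were called higher and 1.92% lower in darkness at 24 h than at time zero. That contrast and the one at 12 h chose the 3 genes, so nothing is read from their place in either.

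**Figure D1:**
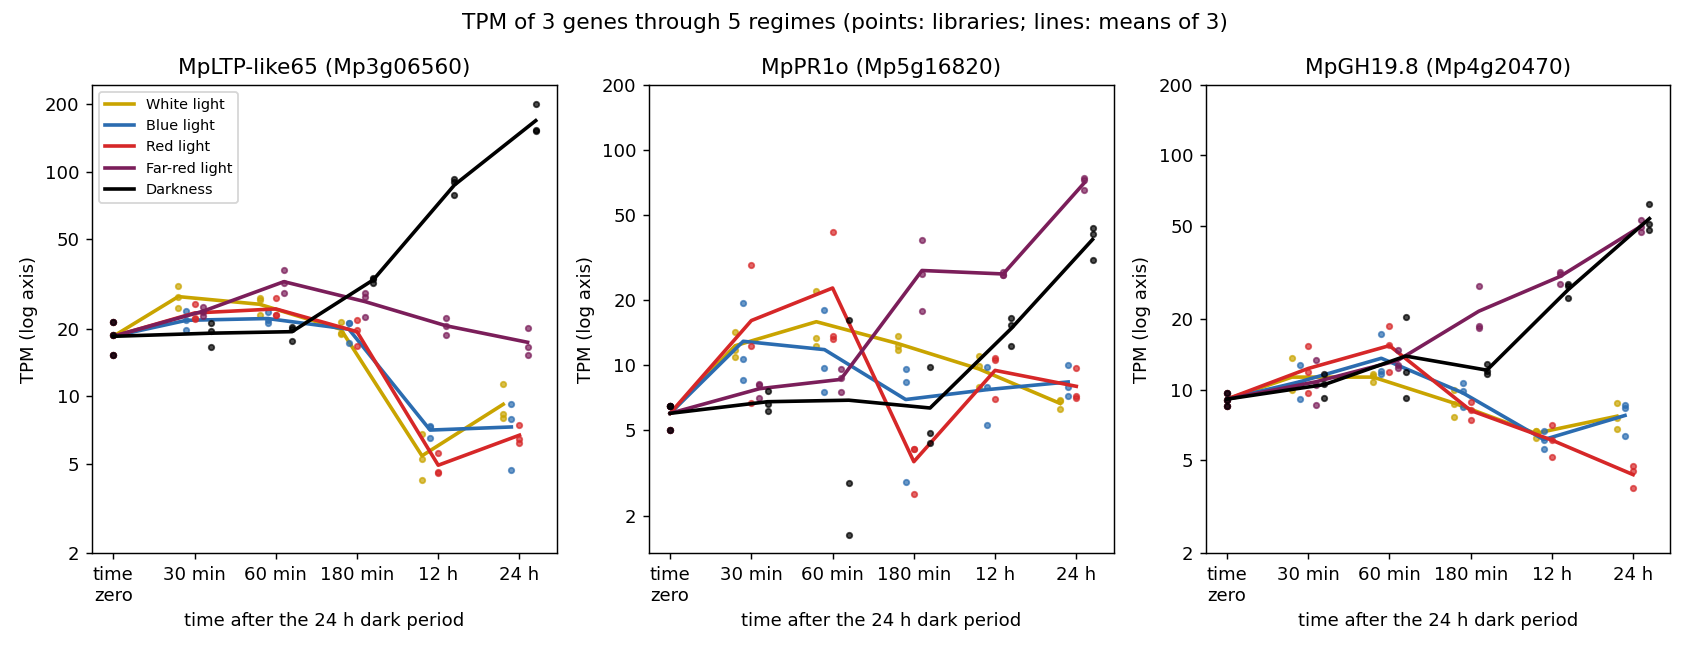
TPM (log axis) of the 3 genes at time zero and after 30 min to 24 h of white, blue, red or far-red light or of darkness; points are libraries and lines join means of 3. MpLTP-like65 reaches 169 TPM in darkness and ends at 17.4 TPM in far-red light, whereas MpPR1o and MpGH19.8 climb in far-red light as well, to 70.3 and 49.9 TPM.

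Far-red light separated the 3 genes. MpPR1o was at 8.06, 8.18 and 7.07 TPM after 30 min of far-red light, 9.58, 7.46 and 8.7 TPM after 60 min, 26.5, 38.2 and 17.8 TPM after 180 min, 26.2, 26.3 and 27.1 TPM after 12 h, and 64.7, 72.3 and 73.9 TPM after 24 h. The increase was thus present by 180 min, when darkness was still at 4.37 to 9.76 TPM. Between 24 h and 30 min of far-red light, neither of which was used to choose the genes, MpPR1o differed by a log2 value of 3.02 (SE 0.387, limma adjusted p = 4.29e-10), a 9.05-fold ratio of mean TPM, with no overlap. Its mean of 70.3 ± 4.93 TPM (SD, n = 3) at 24 h of far-red light was the highest of the 26 groups.

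MpGH19.8 also rose in far-red light. Its libraries were at 13.4, 10.5 and 8.56 TPM at 30 min, 14.8, 12.3 and 12.7 TPM at 60 min, 18.6, 27.8 and 18.3 TPM at 180 min, 28.2, 31.2 and 31.7 TPM at 12 h, and 47, 49.3 and 53.2 TPM at 24 h. All 3 libraries at 24 h lay above all at 30 min, with a log2 difference of 2.12 (SE 0.168, limma adjusted p = 1.32e-17). MpLTP-like65 did not do this. It was at 22.8, 23.8 and 25 TPM after 30 min of far-red light, 28.7, 32.1 and 36.5 TPM after 60 min, 27.8, 28.7 and 22.6 TPM after 180 min, 22.4, 20.6 and 18.8 TPM after 12 h, and 16.6, 20.2 and 15.3 TPM after 24 h. The 24 h libraries lay below those at 30 min by a log2 difference of −0.45 (SE 0.14, limma adjusted p = 0.00393), short of the fold threshold. Of all tested genes, 9.51% were called between 24 h and 30 min of far-red light, against 2 of these 3.

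Set beside darkness of the same length, and described without a test because the late dark libraries chose the genes, the far-red levels differed by gene. At 24 h MpPR1o was 1.84 times as high in far-red light (70.3 TPM) as in darkness (38.3 TPM), without overlap. MpGH19.8 was at 49.9 ± 3.12 TPM in far-red light and 53.7 ± 7.34 TPM in darkness (SD, n = 3 each), and the libraries overlapped. MpLTP-like65 was at 17.4 ± 2.56 TPM in far-red light and 169 ± 27.6 TPM in darkness (SD, n = 3 each), a ratio of 0.103. At 180 min the ratios of far-red light to darkness were 4.36 for MpPR1o, 1.77 for MpGH19.8 and 0.798 for MpLTP-like65.

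In white, blue and red light MpLTP-like65 fell. After 24 h its libraries were at 8.03, 8.36 and 11.3 TPM in white, 9.27, 7.95 and 4.68 TPM in blue, and 6.42, 7.48 and 6.21 TPM in red light. After 30 min they had been at 31.1, 24.7 and 27.8 TPM in white, 23.9, 19.8 and 21.8 TPM in blue, and 22.2, 25.7 and 22.4 TPM in red light. No library at 24 h reached the lowest at 30 min. The log2 differences between 24 h and 30 min were −1.51 in white (SE 0.14, limma adjusted p = 4.67e-15), −1.50 in blue (adjusted p = 5.87e-15) and −1.67 in red light (adjusted p = 6.40e-17), all called. The means at 12 h were 5.43, 7.07 and 4.93 TPM in white, blue and red light, and only in blue light did they overlap the libraries of 24 h. The 18 libraries of these 3 lights at 12 h and 24 h ran from 4.24 to 11.3 TPM, below every library of time zero.

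MpGH19.8 fell less. It was at 7.69 ± 0.997 TPM after 24 h of white light against 11.3 ± 2 TPM after 30 min (SD, n = 3 each; log2 −0.49, limma adjusted p = 0.00686), and at 7.75 ± 1.22 against 10.8 ± 1.8 TPM in blue light (log2 −0.43, adjusted p = 0.017), both short of the fold threshold. In red light it was at 3.79, 4.72 and 4.47 TPM after 24 h and at 15.3, 11.9 and 9.65 TPM after 30 min. That fall was called (log2 −1.30, SE 0.168, limma adjusted p = 3.14e-10), and red light at 24 h held the lowest MpGH19.8 mean of the 26 groups, 4.33 TPM. MpPR1o was not called in white (log2 −0.80, limma adjusted p = 0.0582), blue (−0.51, adjusted p = 0.232) or red light (−0.71, adjusted p = 0.0891). Over all genes, 19.2% were called between 24 h and 30 min in white, 18.1% in blue and 24.0% in red light.

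**Figure D2:**
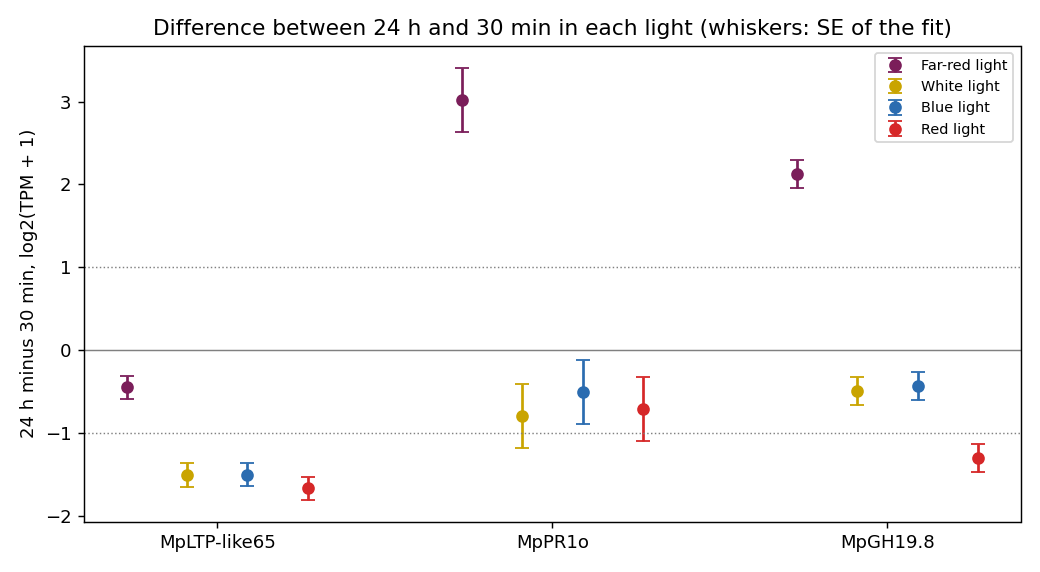
Difference between 24 h and 30 min on the log2(TPM + 1) scale for each gene in far-red, white, blue and red light; points are limma estimates, whiskers their SE, and dotted lines mark the fold threshold of 1. MpPR1o (3.02) and MpGH19.8 (2.12) are above the upper line in far-red light, while MpLTP-like65 is below the lower line in white, blue and red light.

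The difference between far-red light and each other light in this change over time was itself tested, a contrast added after the data had been seen. For MpPR1o the far-red change exceeded that in white light by 3.82 (SE 0.547, limma adjusted p = 1.23e-08), in blue light by 3.53 (adjusted p = 8.43e-08) and in red light by 3.73 (adjusted p = 1.65e-08). For MpGH19.8 the values were 2.62, 2.56 and 3.42 (SE 0.237 each, limma adjusted p at most 1.24e-14). For MpLTP-like65 they were smaller, at 1.06, 1.05 and 1.22 (SE 0.197 each, limma adjusted p at most 4.66e-06). All 9 were called, against 16.7%, 17.1% and 23.0% of tested genes for white, blue and red light. The 3 values of MpLTP-like65 fell to 0.875, 0.802 and 0.949 when libraries were scaled by their median ratio, below the fold threshold.

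The levels at 24 h set far-red light apart in the same way. MpPR1o was at 6.24, 6.86 and 6.82 TPM in white, 7.91, 9.98 and 7.16 TPM in blue, and 7.19, 7.02 and 9.7 TPM in red light, against 64.7, 72.3 and 73.9 TPM in far-red light. MpGH19.8 was at 7.56, 8.74 and 6.76 TPM in white, 8.59, 8.32 and 6.35 TPM in blue, and 3.79, 4.72 and 4.47 TPM in red light, against 47, 49.3 and 53.2 TPM in far-red light. The far-red libraries were apart from all 9 others for all 3 genes. The share of all tested genes that part in this way was not counted, so nothing is read from this. Red minus far-red light gave log2 differences of −1.25 for MpLTP-like65 (SE 0.14, limma adjusted p = 3.63e-12), −3.00 for MpPR1o (SE 0.387, adjusted p = 3.20e-10) and −3.26 for MpGH19.8 (SE 0.168, adjusted p = 1.15e-26). All 3 were called, against 22.6% of all genes.

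Blue minus far-red light gave −1.18, −2.94 and −2.55 for MpLTP-like65, MpPR1o and MpGH19.8 (limma adjusted p at most 7.81e-10), all called, against 14.2% of genes. The MpLTP-like65 value became −0.93 without replicate 3 of blue light at 24 h, which is its lowest library there, and then missed the fold threshold. White minus far-red light gave −3.22 for MpPR1o and −2.55 for MpGH19.8 (limma adjusted p at most 4.53e-11), both called, against 17.4% of genes. For MpLTP-like65 it was −0.85 (limma adjusted p = 2.09e-07), short of the fold threshold. Among white, blue and red light none of the 3 genes was called, where 3.28% of genes were for blue minus red, 1.91% for white minus blue and 0.896% for white minus red light. Of these 9 values, MpGH19.8 was higher in blue than in red light by 0.71 (limma adjusted p = 3.24e-04) and in white than in red light by 0.70 (adjusted p = 3.98e-04), and MpLTP-like65 in white than in red light by 0.40 (adjusted p = 0.016).

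**Figure D3:**
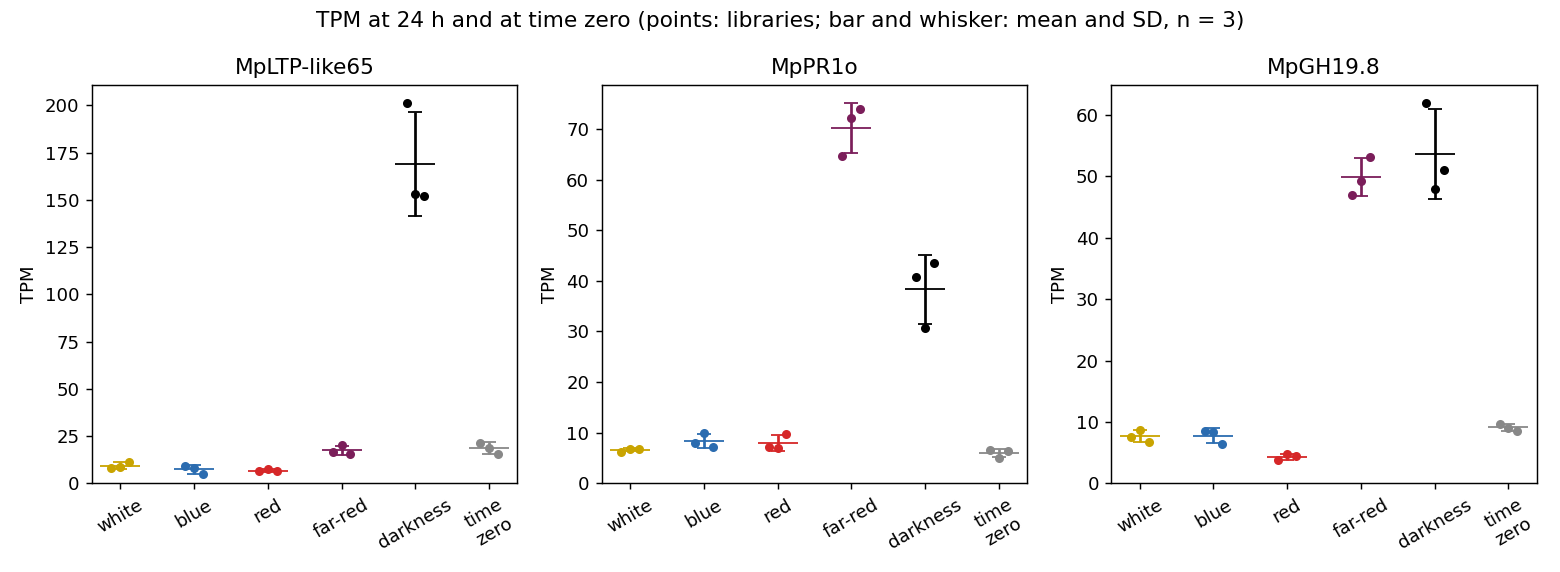
TPM of the 3 genes after 24 h of white, blue, red or far-red light or darkness, and at time zero; points are libraries, and bar and whiskers give mean and SD (n = 3). Darkness alone is high for MpLTP-like65 (169 TPM), far-red light is highest for MpPR1o (70.3 TPM), and far-red light and darkness overlap for MpGH19.8.

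Tested over the 4 lights together at each time, the genes parted from 180 min on. At 30 min none of the 3 was called (limma adjusted p at least 0.184), against 2.17% of all genes. At 60 min MpPR1o was called (range of light means 1.12, limma F test adjusted p = 0.0465), against 7.37% of genes. That call rests on red light at 60 min, where the libraries were at 13.6, 41.7 and 13.2 TPM: without replicate 2 the range was 0.778, with an adjusted p of 0.244, and the call was also lost in all 6 other alternatives tried and without any of 6 further libraries. At 180 min MpPR1o (range 2.60, adjusted p = 9.33e-08) and MpGH19.8 (1.28, adjusted p = 2.97e-10) were called by the limma F test, against 21.1% of genes, and MpLTP-like65 was not (0.42, adjusted p = 0.0142). At 12 h all 3 were called, with ranges of 1.86 for MpLTP-like65, 1.70 for MpPR1o and 2.15 for MpGH19.8, against 21.8% of genes. At 24 h all 3 were again called, against 26.7% of genes.

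MpPR1o also moved early, and unevenly among replicates. After 60 min it was at 13.3, 22.2 and 12.2 TPM in white, 18.1, 7.48 and 9.69 TPM in blue, 13.6, 41.7 and 13.2 TPM in red, and 9.58, 7.46 and 8.7 TPM in far-red light, against 2.82, 1.62 and 16.2 TPM in darkness. Every light overlapped darkness through the 16.2 TPM of the library that stood apart, and every light library lay above the other 2. The log2 differences from darkness were 1.56 in white (SE 0.387, limma adjusted p = 3.57e-04), 1.11 in blue (adjusted p = 0.00948) and 1.90 in red light (adjusted p = 1.75e-05), all called, and 0.78 in far-red light (adjusted p = 0.0871), not called. Without that dark library they were 2.37, 1.92, 2.71 and 1.59, all 4 called (limma adjusted p at most 1.78e-04). The dark libraries then left, at 2.82 and 1.62 TPM, lay below all of time zero (5 to 6.48 TPM) and of darkness at 30 min (6.13 to 7.57 TPM). Far-red light at 60 min overlapped far-red light at 30 min (7.07 to 8.18 TPM). Over all genes, 9.74% were called in white, 10.7% in blue, 12.3% in red and 2.32% in far-red light at 60 min. The blue call was lost without replicate 1 of blue light (0.776) and without replicate 1 or 2 of darkness (0.841 and 0.569). In a fit of only the 2 groups compared, white (adjusted p = 0.0587) and blue (adjusted p = 0.172) missed the threshold by limma.

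At 30 min MpPR1o was at 11.8, 14.3 and 10.9 TPM in white, 19.5, 10.7 and 8.52 TPM in blue, 29.3, 12.3 and 6.65 TPM in red, and 8.06, 8.18 and 7.07 TPM in far-red light, against 7.57, 6.13 and 6.58 TPM in darkness. White and blue light did not overlap darkness, yet no difference was called: the limma values were 0.78 (adjusted p = 0.0853), 0.77 (adjusted p = 0.0827), 0.91 (adjusted p = 0.038) and 0.18 (adjusted p = 0.759) in white, blue, red and far-red light. The red value was 0.379 without replicate 1 and 1.37, then called, without replicate 3. Over all genes 2.93% were called in white, 5.12% in blue, 4.76% in red and 0.291% in far-red light at 30 min. By 180 min of red light MpPR1o had its lowest mean of the 26 groups, with 4.08, 2.53 and 4.06 TPM.

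MpLTP-like65 and MpGH19.8 were called by limma in none of the 8 early comparisons with darkness, where 6 and 0 of the 8 had an unadjusted p under 0.05. MpLTP-like65 was nevertheless above darkness in all 3 libraries of far-red light at 60 min, at 28.7, 32.1 and 36.5 TPM against 20, 17.7 and 20.4 TPM in darkness (log2 0.71, SE 0.14, limma adjusted p = 1.92e-05), and of white light at 30 min (log2 0.52, adjusted p = 0.00121). Of the 8 early light groups only blue light at 30 min overlapped darkness for this gene in unscaled TPM. The share of all tested genes without overlap was not counted. White and red light at 60 min gave 0.39 (limma adjusted p = 0.0121) and 0.32 (adjusted p = 0.0363). Small early values depend on scaling, since the median of all tested genes stood 0.134 to 0.204 above darkness in white, blue and red light at 30 and 60 min and 0.12 above it in far-red light at 60 min. With median-ratio scaling the MpLTP-like65 values were 0.569 in far-red light at 60 min and 0.36 in white light at 30 min. They were 0.228 in white, −0.0159 in blue and 0.0982 in red light at 60 min. At 30 min they were −0.0329 in blue, 0.0707 in red and 0.232 in far-red light. The 8 values of MpGH19.8 were at most 0.207 in size, and with scaling all 8 were negative. Without replicate 3 of darkness at 60 min, those of MpGH19.8 at 60 min were 0.0931 in white, 0.325 in blue, 0.488 in red (limma adjusted p = 0.00804) and 0.305 in far-red light, still short of the fold threshold. Those of MpLTP-like65 were then 0.428, 0.229, 0.359 and 0.749, against 0.39, 0.191, 0.321 and 0.711 with it, and none was called.

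Across the 26 group means the 3 genes ran in parallel to different degrees. These groups include time zero and the late dark groups that chose the genes, so their shared rise in darkness enters the values. Pearson's r of log2(TPM + 1) was 0.792 for MpPR1o with MpGH19.8, 0.734 for MpLTP-like65 with MpGH19.8 and 0.377 for MpLTP-like65 with MpPR1o, given as descriptions over groups of 1 experiment. The ratio of the highest to the lowest group mean was 34.2 for MpLTP-like65, 19.8 for MpPR1o and 12.4 for MpGH19.8. In the order of levels, darkness at 24 h and at 12 h stood clear of all other groups for MpLTP-like65, and the next 18 groups, from darkness at 180 min (33 TPM) to far-red light at 24 h (17.4 TPM), each overlapped the group below them except the last. For MpPR1o only far-red light at 24 h at the top and red light at 180 min at the bottom did not overlap their neighbour. For MpGH19.8 darkness and far-red light at 24 h overlapped each other and stood above far-red light (30.4 TPM) and darkness (26.7 TPM) at 12 h.

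Replicates of a group differed most for MpPR1o (SE of a log2 difference 0.387, against 0.168 for MpGH19.8 and 0.14 for MpLTP-like65), and MpGH19.8 deviated with it. Each library's deviation from its group mean was taken, which removes the treatments. Over 78 libraries the deviations of MpPR1o and MpGH19.8 had a Pearson r of 0.71 (permutation p = 1e-05 within groups, the smallest that 100000 permutations can give; adjusted over 6 relations, 6e-05) and a Spearman rho of 0.572 (permutation p = 3e-05, adjusted 1.5e-04). Without the 2 libraries farthest from the median the Pearson r was 0.609. Over the 60 light libraries it was 0.67 (permutation p = 6e-05, adjusted 1.8e-04; rho 0.625, permutation p = 5e-05, adjusted 1.5e-04; 0.615 without the 2 farthest). MpLTP-like65 showed no such relation, with r of 0.0703 to MpPR1o (permutation p = 0.5, adjusted 0.76; rho 0.077, permutation p = 0.55, adjusted 0.82) and 0.11 to MpGH19.8 (permutation p = 0.38, adjusted 0.76; rho 0.0317, permutation p = 0.82, adjusted 0.82). This relation was looked for after the values were seen. How common such a relation is among other pairs of genes was not tested, so it cannot be called particular to this pair.

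**Figure D4:**
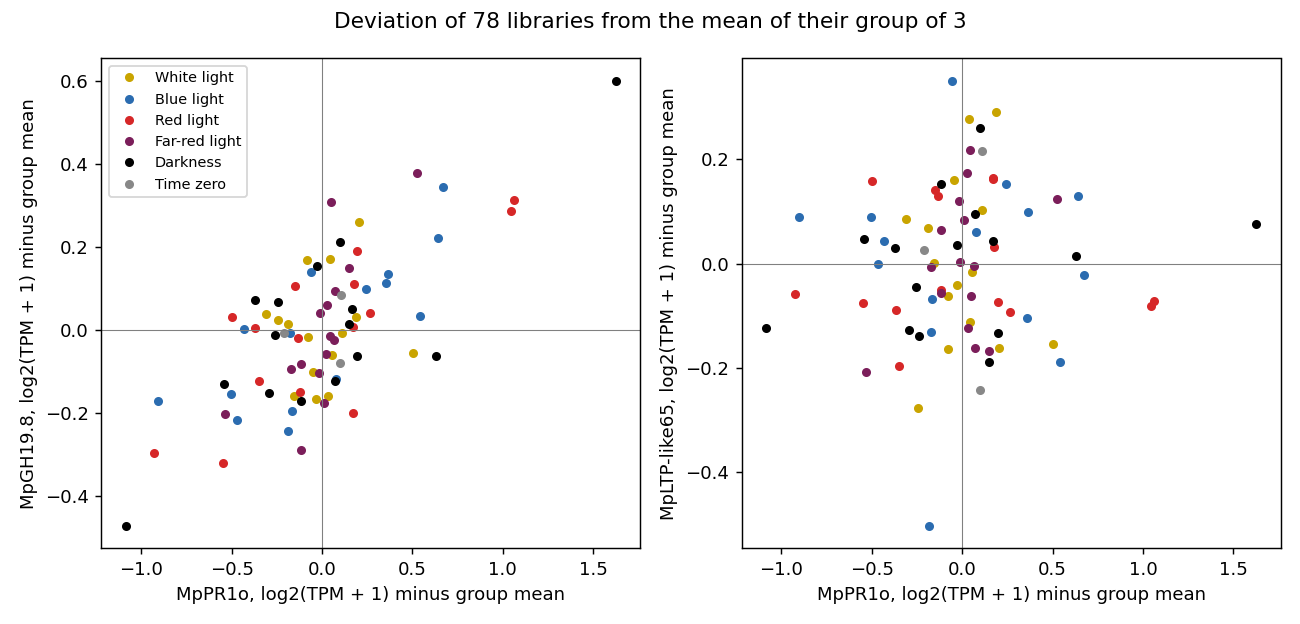
Deviation of each library from the mean of its group of 3, on the log2(TPM + 1) scale, for MpPR1o against MpGH19.8 and MpPR1o against MpLTP-like65; colours give the treatment. The first pair rises together (r = 0.71, 78 libraries), with replicate 3 of darkness at 60 min at the upper right, and the second does not (r = 0.0703).

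The genes whose 26 group means were most like each of the 3, among 8709 tested genes whose means span at least 1 log2 unit, are given as a description, since the likeness includes the dark groups. For MpLTP-like65 they were Mp3g24040 (r = 0.905), Mp7g15340 (0.904) and Mp5g11310 (0.904), none with a symbol. At 24 h they stood at 2.57 TPM in far-red light and 10.4 TPM in darkness for Mp3g24040, 1.54 and 15 TPM for Mp7g15340, and 2.52 and 23.1 TPM for Mp5g11310. For MpPR1o they were MpGH19.7 (Mp4g20450, r = 0.883), the glucanase-family gene MpGH17.10 (Mp2g14720, 0.881) and Mp3g20250 (0.879). For MpGH19.8 they were MpGH19.7 again (0.936), Mp6g16340 (0.928) and Mp8g00550 (0.907). MpGH17.10 was at 12 TPM in far-red light and 7.56 TPM in darkness at 24 h, and Mp6g16340 at 6.34 and 3.08 TPM. Mp3g20250 was at 60.3 TPM in far-red light and 62.6 TPM in darkness, and Mp8g00550 at 13.2 and 15.2 TPM.

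MpGH19.7 and MpGH19.6 (Mp4g20440) are numbered just before MpGH19.8 on the same chromosome. How alike their sequences are was not examined. How any reads that they share were counted is not given in the sources used here, so their levels are uncertain to that extent. MpGH19.7 was at 8.23, 10.1 and 12.1 TPM in far-red light and 8.35, 8.59 and 7.23 TPM in darkness at 24 h, against 1.72, 2.1 and 1.66 TPM at time zero. Red light at 24 h had 0.796, 1.17 and 1.14 TPM of it. MpGH19.6 was at 12.5, 12.1 and 13 TPM in far-red light and 19.4, 18.4 and 16.2 TPM in darkness at 24 h, against 4.95, 4.71 and 5.51 TPM at time zero. At 60 min it was at 12.7, 21.4 and 13.6 TPM in red light, against 4.7, 4.42 and 3.6 TPM in darkness. The order of the 3 genes by level in darkness at 24 h was MpGH19.8 (53.7 TPM), MpGH19.6 (18 TPM) and MpGH19.7 (8.06 TPM), per length.

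**Figure D5:**
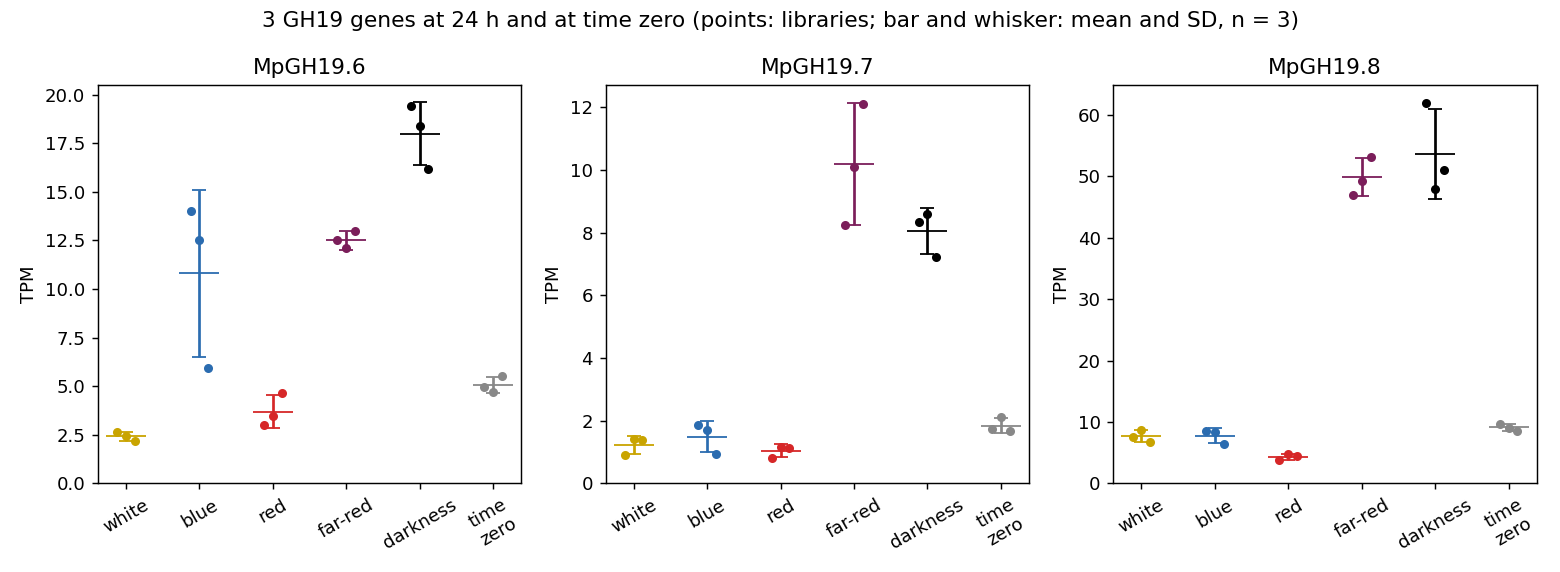
TPM of MpGH19.6, MpGH19.7 and MpGH19.8 after 24 h of white, blue, red or far-red light or darkness, and at time zero; points are libraries, and bar and whiskers give mean and SD (n = 3). All 3 genes are higher in far-red light and darkness than at time zero; blue light at 24 h is spread widely for MpGH19.6 (14, 12.5 and 5.92 TPM).

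The other genes numbered beside the 3 are given as values. Beside MpLTP-like65, Mp3g06570 was at 53.7 TPM after 24 h of darkness and 47.5 TPM at time zero. At 24 h of red and far-red light it was at 18.8 and 18.9 TPM, so that, as for MpLTP-like65, these lights were below darkness. Mp3g06540 was at 25.6 TPM after 24 h of darkness and 27.6 TPM at time zero, Mp3g06550 at 5.38 and 4.3 TPM, and Mp3g06580 never exceeded a group mean of 0.131 TPM. Beside MpPR1o, the histone gene MpH4e (Mp5g16840) was at 94.3 TPM in darkness at 24 h and 98.4 TPM at time zero and Mp5g16810 at 16.3 and 20.5 TPM, while Mp5g16800 and Mp5g16830 stayed at or below 0.168 TPM. Beside MpGH19.8, Mp4g20460 stayed at or below 0.203 TPM, Mp4g20480 was at 2.12 TPM in darkness at 24 h and 2.45 TPM at time zero, and Mp4g20490 at 2.37 and 1.63 TPM.

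The families to which the genes belong moved in part. In the following counts the 3 genes themselves are left out, and over all tested genes 1.22% were called higher and 1.92% lower in darkness at 24 h than at time zero. Among 12 tested GH19 genes of 14 listed, 3 were called higher and 0 lower in darkness at 24 h than at time zero: MpGH19.7 (log2 1.68, SE 0.249, limma adjusted p = 4.91e-08), MpGH19.6 (1.65, SE 0.203, adjusted p = 3.04e-10) and, named after its values were seen, MpGH19.3 (log2 1.56, adjusted p = 1.21e-06). The median of the list was 0.174, against 0.1 over all genes. Among 7 tested PR1 genes of 22 listed, 2 were called higher and 0 lower: MpPR1m (23.9 ± 1.36 TPM in darkness at 24 h against 6.96 ± 0.604 TPM at time zero, SD, n = 3 each; log2 1.65, limma adjusted p = 1.29e-15) and MpPR1j (log2 1.23, adjusted p = 1.70e-06). The list median was 0.833. None of 13 tested lipid transfer protein genes of 16 listed was called by limma in that comparison, although 8 had an unadjusted p under 0.05, and the list median was −0.189.

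Lists of other defence-related genes were counted in the same comparison, against the same 1.22% of genes called higher and 1.92% lower. Of 22 tested GH17 genes, the family of beta-1,3-glucanases, 1 was called higher and 0 lower, MpGH17.10 (log2 1.57, limma adjusted p = 7.24e-09). Of 13 WRKY transcription factor genes 1 was called higher, MpWRKY14 (log2 1.19, limma adjusted p = 9.55e-12). The jasmonate list was drawn by symbols of jasmonate synthesis and signalling genes and also took in MpNPR. Of its 16 tested genes 1 was called higher, the lipoxygenase gene MpLOX10 (1.13, limma adjusted p = 4.44e-17). The WRKY and jasmonate lists each had 0 lower. No gene of the other chitinase family, GH18 (8 tested, 5 with an unadjusted limma p under 0.05), or of the thaumatin-like PR5 family (3 tested, 3 with such a p) was called. List medians were 0.302 for GH17, 0.352 for WRKY, 0.254 for jasmonate, −0.132 for GH18 and 0.402 for PR5 genes.

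At 24 h of light against darkness, the GH19 list had 1 gene called higher and 3 lower in white, 2 and 3 in blue, 1 and 5 in red, and 0 and 0 of 12 in far-red light by limma, where 8 had an unadjusted p under 0.05. The background was 14.5% of genes called higher and 11.7% lower in white, 13.5% and 10.1% in blue, 16.0% and 13.6% in red, and 5.98% and 2.98% in far-red light. The PR1 list of 7 had 1 higher and 2 lower in white, 2 and 2 in blue, 1 and 2 in red, and 1 and 1 in far-red light. MpPR1m was at 24.8 ± 2.2 TPM in far-red light and 23.9 ± 1.36 TPM in darkness at 24 h, against 6.96 ± 0.604 TPM at time zero (SD, n = 3 each). MpPR1c (Mp2g05480), named after its values were seen, was at 33, 28.6 and 28.6 TPM in far-red light at 24 h, against 0.228, 0.331 and 0.272 TPM in darkness (log2 4.60, limma adjusted p = 3.70e-29), and its mean at time zero was 0.744 TPM. It was also called higher in blue light than in darkness at 24 h (mean 5.35 TPM, log2 2.31, limma adjusted p = 5.62e-16). Its means were 0.0991 TPM in white and 0.00796 TPM in red light at 24 h, neither called.

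The lipid transfer list of 13 had 3 genes called higher and 2 lower in white light than in darkness at 24 h, 2 and 0 in blue, 3 and 1 in red, and 3 and 0 in far-red light. Among those called higher, and named after their values were seen, MpLTPd8 was at 0 TPM in darkness and 14.1 TPM in far-red light. MpLTP-like63 was at 0 TPM in darkness, 1.47 TPM in white and 1.62 TPM in red light. Such genes may have passed the filter only through lights in which they are high. Of all tested genes, 14.5% were called higher and 11.7% lower in white, and 13.5% and 10.1% in blue light. These shares were 16.0% and 13.6% in red, and 5.98% and 2.98% in far-red light. The WRKY list of 13 had 0 higher in white, blue and red light with 5, 4 and 7 lower, and 1 and 1 in far-red light. The jasmonate list of 16 had 0 higher in white, blue and red light with 3, 2 and 6 lower, and 1 higher and 3 lower in far-red light. The GH17 list of 22 had 9 higher in each of white, blue and red light with 2, 1 and 1 lower and 11, 12 and 12 not called, and 6 higher, 0 lower and 16 not called in far-red light. The GH18 list of 8 had 2 higher and 1 lower in white, 3 and 0 in blue, 2 and 0 in red, and 1 and 0 in far-red light, and the PR5 list of 3 had 1 higher in white, blue and red light and 0 in far-red light, with 0 lower in each.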

How the data were processed

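The authors deposited TPM for 19355 genes in 78 poly(A) RNA libraries of paired-end reads. STAR is named per the submitters' processing notes. Its version, the build and the quantifier were not given in the sources used here. TPM keeps no read depth, so no counting interval or floor is given, and the number of replicates limits the precision.

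Genes at 1 TPM or more in 3 or more libraries (13054) were kept. Values were analysed as log2 of TPM plus a pseudocount of 1, which understates changes of low genes. A mean per group was fitted to all libraries with limma 3.58.1 in R 4.3.3, with an intensity trend, and tested on simulated data. Comparisons were light against darkness at 30 and 60 min, lights against each other, and 24 h against 30 min in each light. The genes and lists (lipid transfer proteins, PR1, GH19, GH18, GH17, PR5, WRKY, jasmonate genes with MpNPR) were chosen with earlier results of these data known. Named genes are the 3 genes, the 3 most alike in group means, the 2 identifiers on either side, and up to 2 called genes per direction and list in darkness at 24 h. A gene outside this rule is named as such. Symbols came from RefSeq tables of MpTak2_v7.1 by identifier number, with 17384 identifiers matched and 3091 symbols. Of 61 numbers that the TPM table skips, the name table skips 59, against 5.53 if unrelated. The markers MpRSL1, MpBNB, MpLHCA and MpLHCB had no match. Replicate numbers were not treated as pairs in the main fit. No sequence is shown. Alternatives were a pseudocount of 0.1, no filter, median-ratio scaling, no trend, only the groups compared, a replicate block, and leaving out each library.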

Additional observations from a re-analysis of the deposited data

Results flagged for a closer look

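The change from 30 min to 24 h differed between far-red light and each other light for all 3 genes, by the interaction test that was added after the data were seen. On the log2(TPM + 1) scale the far-red change minus that in white, blue and red light was 3.82, 3.53 and 3.73 for MpPR1o, 2.62, 2.56 and 3.42 for MpGH19.8, and 1.06, 1.05 and 1.22 for MpLTP-like65. For MpPR1o and MpGH19.8 it combines a rise in far-red light with lower or uncalled levels in the other lights. For MpLTP-like65 it combines a called fall in white, blue and red light with a smaller one in far-red light that missed the fold threshold.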

How the results depend on the processing

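Of 49 tests of the 3 genes with an adjusted p under 0.05, 35 were called. Their 708 values under other settings included 0 of opposite sign. For the F tests this was fixed in advance, since a range of means cannot be negative. Of the 708 values, 678 kept their side of the thresholds, 29 lost the call and 1 gained it. The call of MpPR1o among the 4 lights at 60 min was lost with a pseudocount of 0.1 (1.19), without the filter on low values (1.12), with median-ratio scaling (1.04), without the intensity trend (1.12), with only the groups compared (1.12) and with the replicate block (1.12, adjusted p = 0.0524), and ranged from 0.778 to 1.39 when 1 library was left out. The replicate block changed no other call. By the median, same-numbered samples were about as alike as others (median r of deviations 0.00216, against 0.00123 between other numbers). Single same-numbered pairs ranged from −0.372 to 0.337. Scaling ended the call of MpPR1o in blue light against darkness at 60 min (0.942) and the 3 far-red differences of MpLTP-like65 from white, blue and red light in the change over time (0.875, 0.802 and 0.949, leaving 0 of 3). With only the groups compared, MpPR1o lost white (1.56) and blue light (1.11) at 60 min and kept 1 of 8 early calls.

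With 1 library left out, MpPR1o in blue light at 60 min ranged from 0.569 to 1.92 and in red light at 30 min from 0.379 to 1.37. MpLTP-like65 ranged from −1.36 to −0.929 for blue minus far-red light at 24 h, so that 1 to 2 of 6 pairs of lights were called. Its far-red differences in the change over time ranged from 0.95 to 1.2 against white light and from 0.801 to 1.23 against blue light, with 1 to 3 of 3 called. The libraries behind these lost calls were replicate 1 of white light at 24 h and at 30 min, replicate 3 of blue light at 24 h, replicate 1 of blue light at 30 min, and replicate 2 of far-red light at 24 h. For MpPR1o 1 to 2 of 4 differences between 24 h and 30 min were called, the second in red light without replicate 3 at 30 min.

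A pseudocount of 0.1 moved the number of genes called to 628 in white (382 with 1), 955 in red (622) and 145 in far-red light (38) at 30 min, to 616 in far-red light at 60 min (303), to 696, 492 and 308 for blue minus red, white minus blue and white minus red light at 24 h (428, 249 and 117), and to 468 among the 4 lights at 30 min (283). Scaling gave 429 in blue (668) and 403 in red light (622) at 30 min. Far-red light had 481 at 60 min without replicate 3 of darkness and 74 at 30 min without its own replicate 1. Beyond what follows from fewer samples, the cause was not tested. Depth is unknown, and 3 samples per group limit the precision.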
